A study of Mus musculus with 6 samples.

Results

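The ATAC-seq peaks described here cover the HoxD cluster from Hoxd12 to Hoxd1 (with Hoxd11, Hoxd10, Hoxd9, Hoxd8, Hoxd4 and Hoxd3 between them) and the landscape on its telomeric side, which holds Mtx2 and a gene desert. They were chosen by position alone, as every peak with its midpoint on chromosome 2 from 74671601 to 75700000 (mm10), and there were 97 of them among 61954 peaks. By gene annotation 30 lay in the Hoxd cluster (up to the end of Hoxd1), 1 in the interval with Mtx2, 64 in the desert between the end of Mtx2 and the start of Hnrnpa3, and 2 over Hnrnpa3. ATAC-seq reads out open chromatin through the places where the transposase Tn5 can cut DNA and attach adapters. Distal forelimb buds of mouse embryos at E11.5 were compared, with 2 libraries of genotype WT and 2 of genotype HOX13-/- (Hox13-/- hereafter). The mutant embryos lack functional HOXA13 and HOXD13 through the Hoxa13Str and Hoxd13lacZ alleles. Both genotypes were on a mixed C57Bl/6 x 129 background, and each library held 50000 cells of 1 embryo, with its left and right buds pooled. The peaks described here are linked to the targeted Hoxd13 allele, and the strain of origin of that stretch of chromosome is not given in the sources used here, so linked sequence and genotype cannot be told apart.

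HOX proteins are homeodomain transcription factors that pattern the body axis and the limb, and in the limb bud the Hoxd genes are transcribed in successive waves. The early wave, which covers the future upper arm and forearm, draws on enhancers in the telomeric desert, whereas the later wave in the digits draws on the centromeric landscape on the Hoxd13 side of the cluster. HOXA13 and HOXD13 are the most posterior HOX proteins of the limb and act in the distal bud, where the telomeric landscape is known to become less active as the centromeric one takes over.

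Accessibility is given as deposited regularized log (rLog) values, which are on a log2 scale, scaled between libraries and shrunk towards the mean of each peak. A difference is Hox13-/- minus WT, and a difference of 1 is 2-fold. Values are printed for replicate 1 and then replicate 2 of each genotype. A peak was called higher or lower in Hox13-/- where limma gave a Benjamini-Hochberg adjusted p under 0.05 over all 61954 peaks. With no counts deposited the read depth of a peak cannot be given, and with 2 libraries per genotype the smallest p of a permutation of the labels is 0.333, so p-values rest on a spread shared between peaks. Over all peaks 57.8% of calls were towards higher accessibility, which became 46.9% once libraries were centred on their medians. The peak over the Hoxd13 start site had values of 4.06 and 4.17 in WT and 3.70 and 3.50 in Hox13-/-, and was called lower. Within 1 kb of it, chr2:74667954-74668115 differed by −0.26 and chr2:74667222-74667392 by 0.22, neither called. The peak at Hoxa13 had 5.71 and 5.95 in WT and 5.66 and 5.84 in Hox13-/-. Accessibility over these genes does not check that they are inactivated.

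The sequences that follow are of the called peaks with the smallest p-values in each direction, 2 from the cluster, where no peak was called lower, and 2 higher and 2 lower from the desert, so that elements of either direction can be compared. All are plus strand, 5′ to 3′, read from the GRCm38 (mm10) genome. Capitals mark matches of the searched motifs CAATAAA (HOX13-type) and TGATTNAT (PBX-HOX type), and neither TCGTAAA (HOX13-type) nor a CTCF core consensus occurs in the printed stretches. In the cluster these are the stretch just before the Hoxd8 start site, chr2:74704426-74704614, which has no match, and the central part of a peak in an intron of Hoxd11, chr2:74685155-74685454.
Hoxd8 upstream peak, chr2:74704426-74704614: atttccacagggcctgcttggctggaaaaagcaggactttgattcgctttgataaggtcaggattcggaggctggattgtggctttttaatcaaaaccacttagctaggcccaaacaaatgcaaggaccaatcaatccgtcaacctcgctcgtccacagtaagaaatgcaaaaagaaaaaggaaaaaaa
Hoxd11 intron peak, chr2:74685155-74685454: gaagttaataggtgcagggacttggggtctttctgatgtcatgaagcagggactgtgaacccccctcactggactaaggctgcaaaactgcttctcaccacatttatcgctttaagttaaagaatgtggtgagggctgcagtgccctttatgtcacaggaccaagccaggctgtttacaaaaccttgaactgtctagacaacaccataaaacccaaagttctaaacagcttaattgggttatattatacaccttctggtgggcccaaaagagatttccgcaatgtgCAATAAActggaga
In the desert the central parts of the peaks with the smallest p-values in the higher direction, chr2:75351130-75351429 and chr2:75208979-75209278, hold none of the motifs.
Intergenic desert peak, called higher, chr2:75351130-75351429: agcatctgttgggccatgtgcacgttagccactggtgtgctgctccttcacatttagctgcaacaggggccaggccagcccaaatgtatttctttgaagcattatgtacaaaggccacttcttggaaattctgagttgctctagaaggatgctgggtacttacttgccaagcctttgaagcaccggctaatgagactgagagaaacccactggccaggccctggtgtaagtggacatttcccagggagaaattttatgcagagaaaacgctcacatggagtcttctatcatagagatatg
2600014E21Rik intron peak, called higher, chr2:75208979-75209278: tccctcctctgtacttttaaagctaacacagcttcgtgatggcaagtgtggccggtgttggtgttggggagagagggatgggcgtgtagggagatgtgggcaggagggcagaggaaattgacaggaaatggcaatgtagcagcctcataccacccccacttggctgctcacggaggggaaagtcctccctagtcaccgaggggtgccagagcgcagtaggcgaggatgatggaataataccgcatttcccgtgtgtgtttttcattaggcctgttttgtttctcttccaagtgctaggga
The 2 desert peaks called lower are shown whole, and that nearer to Hnrnpa3 holds both HOX-type motifs on the minus strand.
A330043C09Rik intron peak, called lower, chr2:75172353-75172565: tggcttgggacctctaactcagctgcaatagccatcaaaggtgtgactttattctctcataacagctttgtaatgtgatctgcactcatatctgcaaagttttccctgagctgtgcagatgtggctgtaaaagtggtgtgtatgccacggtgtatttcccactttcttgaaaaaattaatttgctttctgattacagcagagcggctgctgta
Intergenic desert peak, called lower, chr2:75599210-75599388: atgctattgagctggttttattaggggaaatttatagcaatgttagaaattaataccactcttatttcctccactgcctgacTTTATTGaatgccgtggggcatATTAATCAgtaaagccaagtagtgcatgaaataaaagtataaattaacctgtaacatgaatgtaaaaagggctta

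In the Hoxd cluster, accessibility was higher in Hox13-/- distal buds at 9 peaks, of Hoxd11, Hoxd9, Hoxd8, Hoxd3 and the Haglr transcript, whereas no peak at the start sites of Hoxd12, Hoxd10 or Hoxd1 was called. The Hoxd1 peak differed by 0.32, as much as the called Haglr peak, and missed the threshold (limma adjusted p = 0.063). Of the 30 cluster peaks 9 were called higher, against 11.4% of all peaks, and 0 were called lower, against 8.31% of all peaks. The called peaks lay at Hoxd11, in the Hoxd11 intron, at Hoxd9, beyond the 3′ end of Hoxd9, at Hoxd8 and Hoxd3, and over Haglr, and their differences ran from 0.32 to 0.65. None reached 2-fold. The median difference over the 30 peaks was 0.18, against −0.01 over all peaks, and 22 of the 30 were above 0. Of the 30, 18 (60%) entered the table through calls in Hox13-/- libraries only and 1 through WT only. Over all peaks these shares were 32.2% and 16.6%. The 18 include the Hoxd8 promoter peak and the Hoxd11 intron peak with the largest differences. Entry through 1 genotype favours peaks higher in it, and its part in these counts was not tested. In bulk tissue, more cells with an open site and more opening per cell cannot be told apart. The count depended on single libraries, with 3 peaks called higher without WT replicate 1 or without Hox13-/- replicate 2 and 5 without WT replicate 2 or without Hox13-/- replicate 1. With the libraries centred on their medians, or with quantile or cyclic loess scaling, 6 were higher and 1 was lower, the latter being chr2:74672581-74672851 between Hoxd13 and Hoxd12 (5.06 and 5.07 in WT, 4.64 and 4.85 in Hox13-/-). Of the 9, 5 were called in these scalings and in a GC correction alike.

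**Figure D1:**
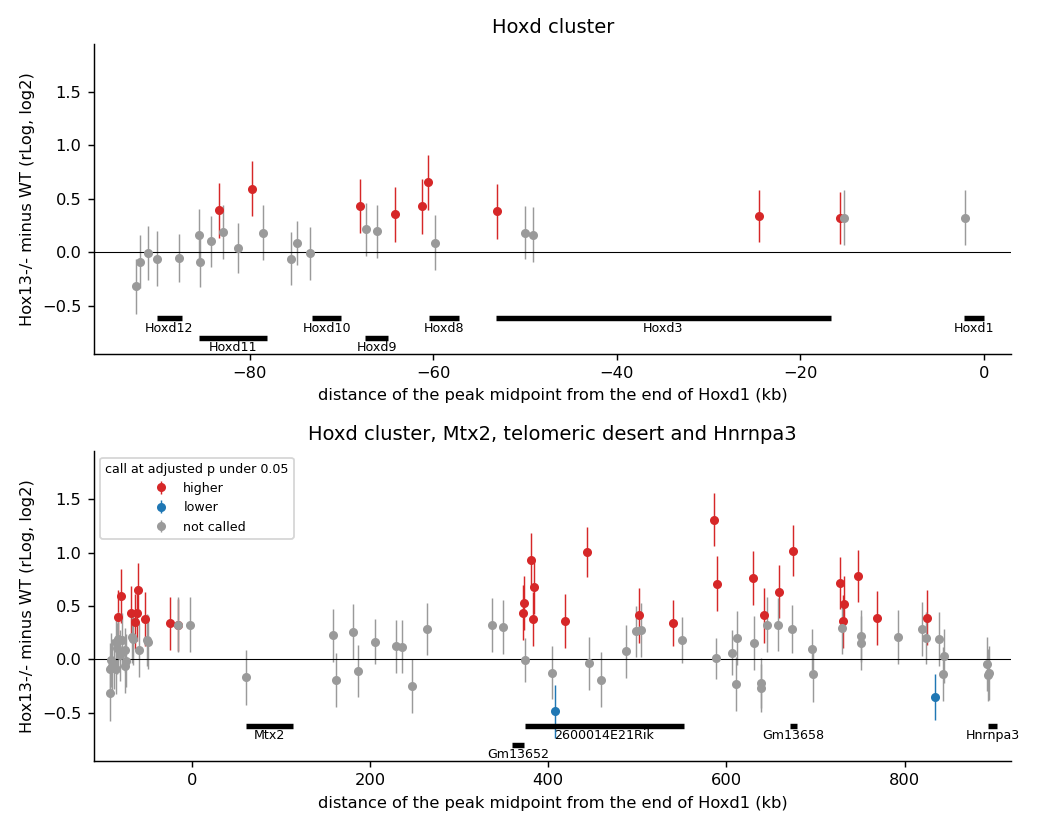
Difference in accessibility, Hox13-/- minus WT (rLog, log2 scale), at each of the 97 peaks against the distance of its midpoint from the end of Hoxd1 in kb, with the cluster enlarged in the upper panel. Points are differences of the means of 2 libraries each, vertical lines are 95% intervals from limma, colours give the call, and black bars are gene spans (Hoxd4, which overlaps Hoxd3, is not drawn). Red points reach 1.31 in the desert and 0.65 in the cluster, and the 2 blue points lie in the desert.

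**Figure D2:**
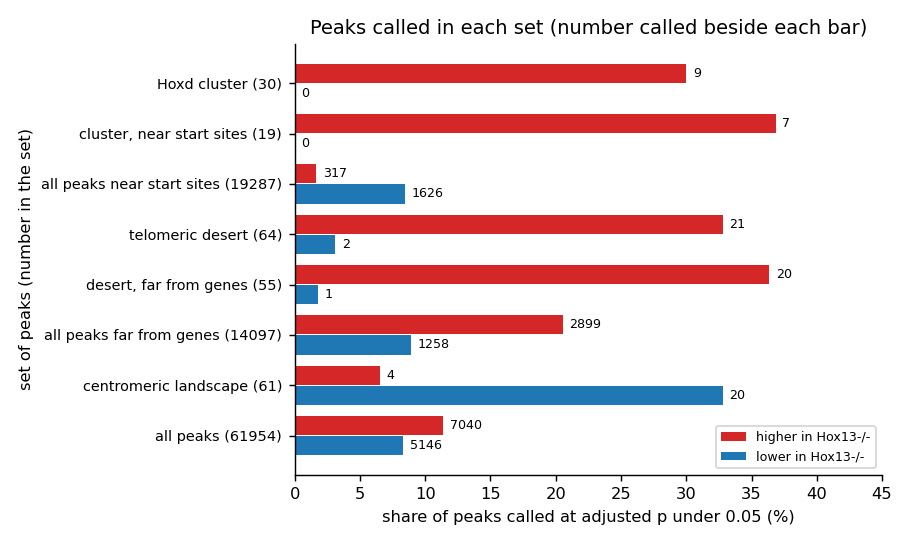
Share of peaks called higher (red) and lower (blue) in Hox13-/- at an adjusted p under 0.05, in percent, for the cluster, the desert, the centromeric landscape and all peaks, with the number called beside each bar. Near start sites means within 1 kb of an annotated start site, and far from genes means over 100 kb from a protein-coding start site. The cluster and the desert have 30.0% and 32.8% of peaks called higher, and the centromeric landscape has 32.8% called lower.

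Promoter peaks made up most of the cluster's calls. Within 1 kb of an annotated start site lay 19 of the 30 cluster peaks, and 7 of these were called higher and 0 lower, whereas over all 19287 peaks near start sites 1.64% were called higher and 8.43% lower. The median difference of the 19 was 0.21, against −0.11 over all peaks near start sites. Among the 11 cluster peaks farther from start sites 2 were called higher and 0 lower, against 15.8% and 8.25% of all such peaks. Divided by position, a division made with the values known, 0 of the 6 peaks left of Hoxd11 and 9 of the 24 from Hoxd11 onwards were called higher, and 21 of those 24 had a difference above 0.

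At the posterior end, Hoxd12, which is expressed in the posterior and distal limb bud, had 2 peaks within 1 kb of its start site. Across the start itself, the peak chr2:74674952-74675221 had values of 5.51 and 5.54 in WT and 5.43 and 5.50 in Hox13-/-, a difference of −0.06 (95% interval −0.32 to 0.19, limma adjusted p = 0.78). Upstream, the peak chr2:74673818-74674211 had values of 5.93 and 5.88 in WT and 5.83 and 5.97 in Hox13-/-, a difference of −0.01 (95% interval −0.26 to 0.25). The genotypes overlapped at the upstream peak, and at the start itself the gap between them was smaller than the spread of the Hox13-/- libraries.

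Hoxd11, a gene needed for the forearm bones together with Hoxa11, had 2 peaks by its start site and a further peak called higher within its intron. At the upstream peak, chr2:74681560-74681887, values were 5.15 and 4.96 in WT and 5.48 and 5.41 in Hox13-/-, a difference of 0.39 (limma adjusted p = 0.019, standard error 0.13). The peak over the start site, chr2:74681989-74682533, was the stronger of the pair, at 6.28 and 6.31 in WT and 6.55 and 6.42 in Hox13-/-, with a difference of 0.19 that was not called (limma adjusted p = 0.31). Both Hox13-/- libraries lay above both WT libraries at either peak. In the intron shared with the transcript Gm28309, the peak chr2:74685116-74685492 (the sequence with the CAATAAA match) had values of 4.72 and 4.79 in WT and 5.45 and 5.25 in Hox13-/-. Its difference of 0.59 (limma adjusted p = 1.2e-04, standard error 0.13) was called with any library left out, ranging from 0.49 to 0.69. The upstream Hoxd11 peak lost its call without WT replicate 2 or either Hox13-/- library.

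Hoxd10, which likewise belongs to the group of posterior Hoxd genes, had 1 peak, chr2:74691356-74692026, the strongest by WT level among the start-site peaks of the Hoxd genes. Values were 6.71 and 6.63 in WT and 6.46 and 6.85 in Hox13-/-, a difference of −0.01 (95% interval −0.26 to 0.24, limma adjusted p = 0.96). The Hox13-/- libraries fell on either side of the WT libraries there, and its difference moved from −0.20 to 0.18 as single libraries were left out.

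Hoxd9, which acts with its Hoxa paralogue in the upper limb, had 3 peaks near its start site, of which 1 was called. Upstream, the peak chr2:74696818-74697393, over the antisense transcript Gm28793, had values of 5.24 and 5.55 in WT and 5.82 and 5.84 in Hox13-/-, a difference of 0.43 (limma adjusted p = 0.0075, standard error 0.13). The peak over the Hoxd9 start site, chr2:74697469-74698156, had 6.66 and 6.61 in WT and 6.87 and 6.83 in Hox13-/- (difference 0.21), and the peak in the intron, chr2:74698634-74699338, had 6.32 and 6.60 in WT and 6.46 and 6.85 in Hox13-/- (difference 0.20). Neither was called, and only at the intron peak did the genotypes overlap. Beyond the 3′ end of Hoxd9, the peak chr2:74700815-74701091 had 4.23 and 4.28 in WT and 4.64 and 4.58 in Hox13-/-, a difference of 0.35 (limma adjusted p = 0.037, standard error 0.13) that lost its call whichever library was left out and in all 3 other scalings. The upstream Hoxd9 peak lost its call without WT replicate 1 or Hox13-/- replicate 2.

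Hoxd8, a homeobox gene of the central part of the cluster, showed the largest difference of the cluster at its promoter. The promoter peak chr2:74704195-74704956, whose upstream stretch is printed above, had values of 5.34 and 5.49 in WT and 6.16 and 5.97 in Hox13-/-. The difference was 0.65 (limma adjusted p = 1.4e-05, standard error 0.13), and the genotypes were apart by more than the spread within either. It stayed between 0.56 and 0.75 and called with any library left out. Its neighbour on the upstream side, chr2:74703831-74704136, had 4.32 and 4.58 in WT and 4.79 and 4.97 in Hox13-/-, a difference of 0.43 (limma adjusted p = 0.0088, standard error 0.13) that was not called without WT replicate 1 or Hox13-/- replicate 2. The peak just inside Hoxd8, chr2:74705196-74705506, had 4.51 and 4.46 in WT and 4.58 in both Hox13-/- libraries, a difference of 0.09 that was not called. With 84.2% GC it was the most GC-rich peak of the cluster.

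In the anterior part of the cluster, Hoxd3, a paralogue of the axial patterning gene Hoxa3, had called peaks at 2 of its annotated start sites. Over the most upstream of them, where the antisense transcript Hoxd3os1 also runs, the peak chr2:74711743-74712284 had values of 5.66 and 5.87 in WT and 6.18 and 6.11 in Hox13-/-, a difference of 0.38 (limma adjusted p = 0.022, standard error 0.13). By the most downstream of them, the peak chr2:74740586-74740791 had 3.75 and 3.71 in WT and 4.22 and 3.92 in Hox13-/-, a difference of 0.34 (limma adjusted p = 0.040, standard error 0.13). Both lost their calls without WT replicate 1 or without Hox13-/- replicate 1, the former also without Hox13-/- replicate 2 or with quantile normalization, and the latter also without WT replicate 2, with median centring, cyclic loess or the GC correction. No peak lay within 1 kb of a start site of the basic transcript set of Hoxd4, whose full annotated span begins inside the upstream Hoxd3 peak, so no accessibility of a Hoxd4 promoter of its own can be given.

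Haglr is a long non-coding transcript that runs antisense between Hoxd3 and Hoxd1. In its exon the peak chr2:74749372-74749577 had values of 3.61 and 3.56 in WT and 3.80 and 4.01 in Hox13-/-, a difference of 0.32 (limma adjusted p = 0.050, standard error 0.12), which is just under the threshold and lost its call without either WT library, without Hox13-/- replicate 2, without the variance trend, and with median centring, quantile or cyclic loess scaling. At Hoxd1, the most anterior gene of the cluster, the start-site peak chr2:74762870-74763194 had 4.81 and 4.75 in WT and 5.10 and 5.11 in Hox13-/-. Its difference of 0.32 (95% interval 0.07 to 0.58, limma adjusted p = 0.063) was not called, although both Hox13-/- libraries lay above both WT libraries. With the GC correction the Hoxd1 peak passed the threshold at a difference of 0.46.

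**Figure D3:**
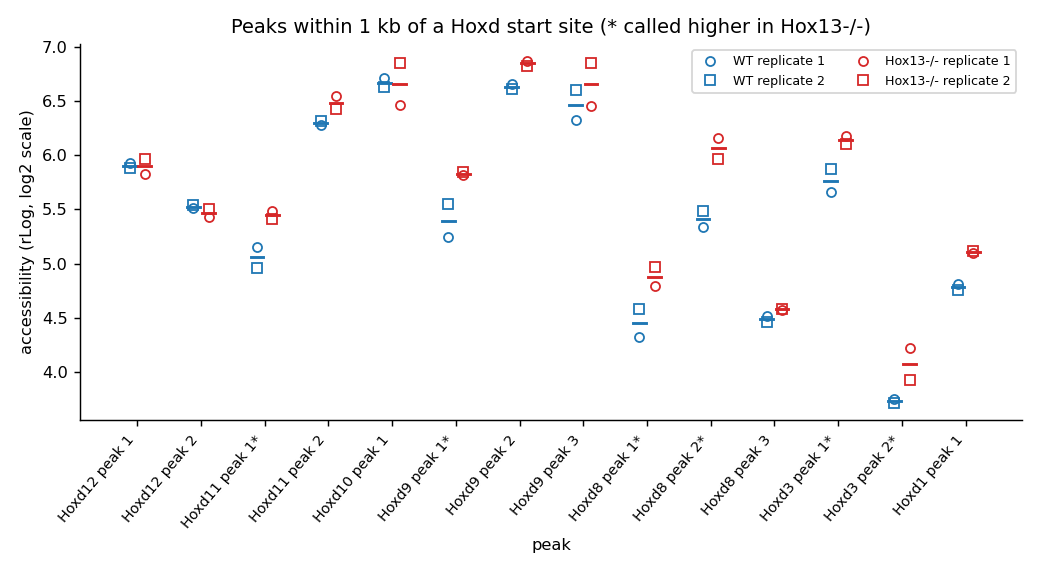
Accessibility (rLog, log2 scale) in each library at the 14 peaks within 1 kb of a start site of a Hoxd gene, ordered along the chromosome from Hoxd12 to Hoxd1. Circles are replicate 1, squares replicate 2, blue WT, red Hox13-/-, and horizontal lines the means of 2 libraries. The genotypes overlap or nearly meet at Hoxd12 and Hoxd10 and are farthest apart at Hoxd8 peak 2, where WT is at 5.34 and 5.49 and Hox13-/- at 6.16 and 5.97.

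The genes that border the desert showed no called change. Mtx2, which encodes a mitochondrial outer membrane protein, had a single peak at its start site, chr2:74825704-74825999, with values of 5.35 and 5.58 in WT and 5.18 and 5.42 in Hox13-/- (difference −0.17, 95% interval −0.42 to 0.09, limma adjusted p = 0.39). The genotypes overlapped there. Hnrnpa3, an RNA-binding protein gene at the far end, had a start-site peak chr2:75658630-75659348 at 7.82 and 7.85 in WT and 7.64 and 7.75 in Hox13-/-, a difference of −0.14 (limma adjusted p = 0.44). Its intron peak chr2:75659576-75659955 differed by −0.13 and the peak before it, chr2:75657855-75658270, by −0.04, neither called.

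In the telomeric desert, which lacks protein-coding genes, accessibility was called higher in Hox13-/- at scattered elements, all over or beyond the transcript Gm13652. Of its 64 peaks 21 were called higher and 2 lower, against 11.4% and 8.31% of all peaks, with a median difference of 0.24, and 49 of the 64 differences were above 0. Values of both Hox13-/- libraries lay above those of both WT libraries at 43 peaks (67.2%) and below them at 11 (17.2%), against 29.7% and 29.6% of all peaks. Over peaks more than 100 kb from a protein-coding start site these shares were 45.3% and 21.7%, and the median difference was 0.11. The share below was thus near that of such peaks. In the cluster the counts above and below were 16 and 3 of 30. Of the 64 desert peaks, 31 (48.4%) entered the table through calls in Hox13-/- libraries only and 8 (12.5%) through WT only. Over peaks more than 100 kb from a protein-coding start site these shares were 43.8% and 18.4%. The part of such entry in the counts was not tested. Peaks over 100 kb from a protein-coding start site numbered 55 in the desert, of which 20 were called higher and 1 lower, against 20.6% and 8.92% of the 14097 such peaks in the table. As single libraries were left out, 15 to 17 desert peaks were called higher, and 11 of the 21 were called in every case. The 21 had the same direction in every alternative scaling, in the GC correction and without any single library.

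Past 2-fold there were 3 desert peaks and 0 cluster peaks, against 0.313% of all peaks in the higher direction, and in the lower direction 0 peaks, against 0.224%. The largest difference was at the intergenic peak chr2:75350734-75351824, 586.1 kb beyond the end of Hoxd1, with values of 6.08 and 6.22 in WT and 7.41 and 7.51 in Hox13-/- (difference 1.31, standard error 0.13, limma adjusted p = 1.0e-21). Peak calling by the authors had found it in the Hox13-/- libraries only. In an intron of the non-coding gene Gm13658, the peak chr2:75439299-75440284 had 7.69 and 7.51 in WT and 8.58 and 8.66 in Hox13-/-, a difference of 1.02 (limma adjusted p = 2.6e-14, standard error 0.12). The most accessible peak of the desert, chr2:75208263-75209993 in an intron of the non-coding gene 2600014E21Rik, had 8.24 and 8.14 in WT and 9.27 and 9.12 in Hox13-/-, a difference of 1.004 (limma adjusted p = 1.9e-14, standard error 0.12). All 4 libraries had a called peak at the last 2 of these, so they were already open in WT, and at each of the 3 the gap between genotypes was several times the spread within them. The last 2 did not always pass 2-fold. They differed by as little as 0.93 with a library left out, by 0.98 and 0.97 with median centring, and by 0.93 and 0.90 with the GC correction.

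A further 5 desert peaks were among the 8 with the smallest p-values, and all were called with any library left out. Near the left end of 2600014E21Rik, the peak chr2:75146181-75146586 had 4.67 and 5.14 in WT and 5.90 and 5.77 in Hox13-/- (difference 0.93, limma adjusted p = 1.2e-10). The intergenic peak chr2:75512481-75513213, 747.7 kb beyond Hoxd1, had 6.95 and 6.85 in WT and 7.50 and 7.86 in Hox13-/- (difference 0.78). At chr2:75395082-75395730 the values were 5.64 and 5.53 in WT and 6.34 in both Hox13-/- libraries (difference 0.76). The spread within a genotype was widest at the first of these in WT and at the peak 747.7 kb away in Hox13-/-, and in neither did it bridge the gap. At chr2:75491939-75492897 values were 6.86 and 6.98 in WT and 7.62 and 7.65 in Hox13-/- (difference 0.72), and at chr2:75354506-75354851, just past the peak with the largest difference, they were 4.22 and 4.36 in WT and 5.08 and 4.92 in Hox13-/- (difference 0.71). The other 13 peaks called higher differed by 0.34 to 0.68, with limma adjusted p-values from 5.8e-06 to 0.033.

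The 2 peaks called lower were weak ones. In an intron shared by 2600014E21Rik and A330043C09Rik, chr2:75172353-75172565 had 4.31 and 4.23 in WT and 3.85 and 3.71 in Hox13-/-, a difference of −0.49 (limma adjusted p = 0.0017, standard error 0.13), and the authors' peak calling found it in both WT libraries only. Towards Hnrnpa3, chr2:75599210-75599388 had 3.08 and 3.04 in WT and 2.78 and 2.64 in Hox13-/-, a difference of −0.36 (limma adjusted p = 0.010, standard error 0.11). Both lost their calls without Hox13-/- replicate 2, the latter also without WT replicate 1 and with the GC correction, where its difference was −0.21.

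**Figure D4:**
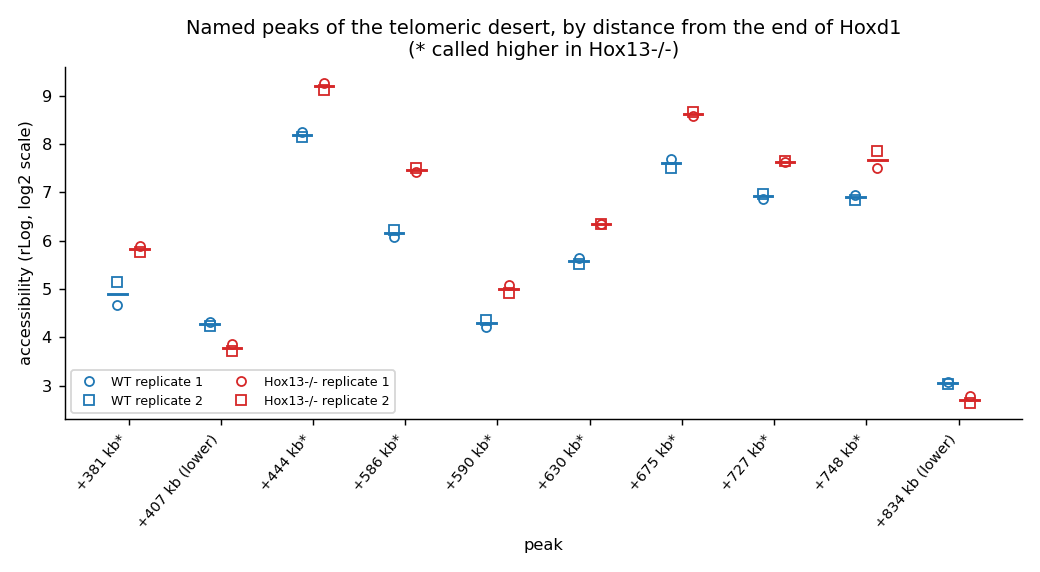
Accessibility (rLog, log2 scale) in each library at 10 peaks of the telomeric desert, the 8 called higher with the smallest p-values and the 2 called lower, labelled by rounded distance in kb from the end of Hoxd1. Circles are replicate 1, squares replicate 2, blue WT, red Hox13-/-, and horizontal lines the means of 2 libraries. The libraries of the genotypes do not overlap at any of the 10, and the gap is widest at the peak with 6.08 and 6.22 in WT and 7.41 and 7.51 in Hox13-/-.

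Calls of higher accessibility were unevenly placed along the desert, by divisions made with the values known. The 11 peaks between Mtx2 and the transcript Gm13652 included 0 called higher, and the 53 from Gm13652 onwards included 21, the first of them over Gm13652. Over all peaks 11.4% were called higher, and over peaks more than 100 kb from a protein-coding start site 20.6%. The stretches differed less in direction, with median differences of 0.17 and 0.28. Both Hox13-/- libraries lay above both WT libraries at 63.6% and 67.9% of their peaks, against 45.3% of peaks that far from such a site. Joining neighbours less than 10 kb apart gave 28 runs of peaks, of which 13 held a peak called higher. The most calls were in chr2:75136826-75149216, which spans the diverging starts of Gm13652 and 2600014E21Rik, where 5 of 6 peaks in 12.4 kb were called higher. At chr2:75491939-75497198, 3 of 4 peaks in 5.26 kb were, against 32.8% of all desert peaks. The called peaks lay side by side with peaks that were not called, as at chr2:75208263-75211108, where a difference of 1.004 had a neighbour at −0.04. By signal, 15 of the 33 desert peaks above the median of all peaks were called higher and 0 lower, against 16.4% and 10% of all peaks above it, and 6 of the 31 below it were called higher and 2 lower, against 6.34% and 6.57% of all peaks below it.

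Set side by side, cluster and desert both had higher mean accessibility in Hox13-/-. The desert's difference was the larger as deposited, with the kinds of peak not matched. Mean rLog over the 30 cluster peaks was 4.64 and 4.67 in WT and 4.83 and 4.84 in Hox13-/-, a difference of 0.18. Over the 64 desert peaks it was 4.76 in both WT libraries and 5.01 and 5.00 in Hox13-/-, a difference of 0.25. The cluster was therefore below the desert by 0.12 and 0.09 in WT and by 0.17 and 0.16 in Hox13-/-, so that Hox13-/- minus WT was lower by 0.07 in the cluster, which is beyond the spread between libraries (SD 0.015). No p is given for it, because it is a mean over chosen peaks. The sign did not hold in every fit, and with the GC correction the cluster's difference exceeded the desert's by 0.013. Without peaks near start sites the cluster's difference was below the desert's by 0.17, and its median was 0.09. Peaks of the cluster were richer in GC than those of the desert, with medians of 58.3% and 46.4%. They also lay near start sites more often, at 63.3% against 6.25%. The 19 cluster peaks near start sites had a mean difference of 0.24, against −0.099 over all peaks near start sites. The 55 desert peaks over 100 kb from a protein-coding start site had 0.27, against 0.097 over all such peaks. Set against like peaks, these cluster peaks stood farther off than these desert peaks.

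The centromeric landscape, which ends at Hoxd13 and was counted from the gene Atp5g3, went the other way. Of its 61 peaks 4 were called higher and 20 lower, against 11.4% and 8.31% of all peaks, with a median difference of −0.20. Mean rLog was 4.68 and 4.66 in WT and 4.50 and 4.48 in Hox13-/-. Over all peaks the library means ran from 4.91 to 4.93.

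**Figure D5:**
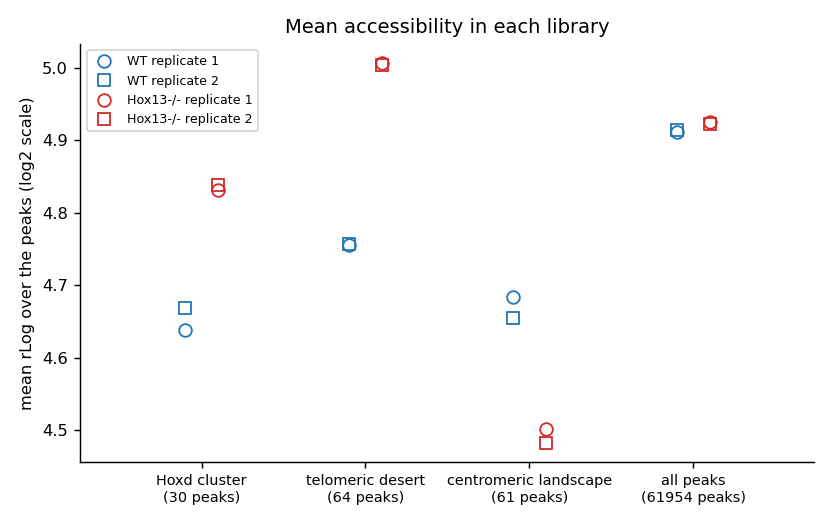
Mean rLog (log2 scale) in each of the 4 libraries over the peaks of the Hoxd cluster, the telomeric desert, the centromeric landscape and the whole table. Circles are replicate 1, squares replicate 2, blue WT and red Hox13-/-. The Hox13-/- libraries are above WT in the cluster and the desert, at 4.83 and 4.84 and at 5.01 and 5.00, and below WT in the centromeric landscape, at 4.50 and 4.48.

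Cluster and desert peaks differed in what they were made of. The cluster had 32.1 peaks per 100 kb and the desert 8.20. Median length was 274 bp in the cluster, 301 bp in the desert and 250 bp over all peaks, and CpG dinucleotides per 100 bp had medians of 5.03, 1.43 and 2.05. Within the desert the 21 peaks called higher had a median length of 430 bp, against 226 bp for the 41 not called, and a median of mean rLog of 5.52 against 4.57. Calls went with signal over the whole table too, where 16.4% of peaks above the median signal and 6.34% of those below it were called higher. Mean rLog also includes the raised Hox13-/- libraries, so this contrast is not a separate trait of these elements.

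The searched motifs were found in few of these peaks. CAATAAA, on either strand of the whole peak, occurred in 4 of 30 cluster peaks (13.3%) and 10 of 64 desert peaks (15.6%), against 6.43% of all peaks. The share was 10.3% over peaks more than 100 kb from a protein-coding start site (far peaks) and 2.74% over peaks near start sites. Of the 10 desert peaks with it 2 were called higher and 1 lower, and of the 4 cluster peaks 2 were called higher, in the Hoxd11 intron and upstream of Hoxd9. Over all peaks with CAATAAA 19.4% were called higher and 16.0% lower. TCGTAAA occurred in 1 cluster peak and 2 desert peaks, none of them called. TGATTNAT occurred in 2 cluster and 4 desert peaks (6.67% and 6.25%), against 3.36% of all peaks, 5.74% of far peaks and 1.42% near start sites. The CTCF core consensus is named for the architectural protein that bounds chromatin loops. It occurred in 6 of 30 cluster peaks (20%) and 3 of 64 desert peaks (4.69%), against 10.5% of all peaks. Both shares were near those of like peaks, at 21.5% near start sites and 3.85% of far peaks. The 6 cluster peaks include start-site peaks of Hoxd12, Hoxd11, Hoxd9, Hoxd8 and Hoxd1. All 3 desert peaks with the core were called higher, chr2:75138028-75138732 by 0.53, chr2:75148789-75149216 by 0.68 and chr2:75491939-75492897 by 0.72. The first 2 lie in chr2:75136826-75149216, where 5 of 6 peaks were called higher, as were 32.8% of desert peaks. Over all 6499 peaks with the core 5.62% were called higher, but 4154 of them lie near start sites, where 1.64% of peaks were. The part of the core in these calls was not tested. Matches of the CTCF core and the HOX-type motifs were counted separately, and some peaks, such as chr2:75491939-75492897, hold both.

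Peak calling in single libraries gives a further view of the same reads. The authors' calling found 8 of 30 cluster peaks (26.7%) and 12 of 64 desert peaks (18.8%) in both Hox13-/- libraries but not in WT. Over all peaks the share was 11.2%, and over peaks more than 100 kb from a protein-coding start site 17.4%, near the desert's. Found in both WT libraries only were 0 cluster peaks and 1 desert peak (1.56%). This share was 2.98% over all peaks and 3.80% over the peaks far from protein-coding start sites. The libraries also differed in how many peaks of the merged table carried a call from them, which was 38401 and 27241 in WT and 38621 and 45587 in Hox13-/-, and the part of that in the result was not tested. In all 4 libraries 6 of 30 cluster peaks and 13 desert peaks (20.3%) had been found. Over all peaks 31.8% had been, and over peaks more than 100 kb from a protein-coding start site 18.6%.

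Genes of the same family and pathway elsewhere gave a mixed picture. Of 44 genes (the neighbours of the cluster on the Hoxd13 side, the Hoxa, Hoxb and Hoxc genes and further limb factors), 24 had a peak within 1 kb of a start site, 45 peaks in all. Of the 30 Hoxa, Hoxb and Hoxc genes 12 had such a peak. No Hoxb gene was among them, and of the Hoxc genes only Hoxc5, so this part of the comparison is nearly that of the Hoxa genes alone. Called higher were 3 of these, at Hoxa5, Hoxa7 and Hoxa10, and called lower were 6, at Hoxd13, Hoxa5, Hoxa9, Hoxa10, Hoxa11 and Ctcf. Over all peaks near start sites 1.64% were called higher and 8.43% lower. The median difference over the 45 was −0.02. The Hoxa10 peaks went in both directions, by 0.41 and by −0.37. At Hoxa11, the forearm partner of Hoxd11, 1 peak in the gene fell by 1.74 on the log2 scale, from 6.85 and 6.81 in WT to 5.25 and 4.93 in Hox13-/-. The Hoxa11 peaks chr6:52245674-52246141 and chr6:52246573-52246686 differed by 0.15 and 0.24, neither called. At the start sites of the Hoxd genes 6 of 14 peaks were called higher and 0 lower, against the same 1.64% and 8.43%.

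Markers of the limb and of other cell types were read at their start sites to check the labelled tissue. All 5 limb mesenchyme markers (Prrx1, Tbx5, Twist1, Msx1 and Hoxa13) had peaks, and of their 10 peaks 0 were called higher and 1, at Twist1, was called lower. Over all peaks near start sites 1.64% were called higher and 8.43% lower. Of 5 markers each, peaks were present at 3 for ectoderm, 1 for endothelium, 1 for blood and 2 for neural crest and nerve, and 0 of these peaks were called. Mean rLog over the ectoderm marker peaks ran from 3.25 to 3.54 in WT and from 3.21 to 3.22 in Hox13-/-, and over the neural crest and nerve peaks from 4.66 to 4.72 in WT and from 4.51 to 4.58 in Hox13-/-. The endothelium peak was at 6.67 to 6.71 in WT and 6.62 to 6.75 in Hox13-/-, the blood peak at 3.10 to 3.16 and 2.98 to 3.02, and the limb mesenchyme peaks averaged 5.21 to 5.30 and 5.25 to 5.26. None of these lists had a peak called higher, and the part of these shifts in the results at the HoxD locus was not tested.

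Averaged over the 14 start-site peaks of the Hoxd genes, values were 5.44 and 5.50 in WT and 5.71 and 5.74 in Hox13-/-. The start-site peaks elsewhere closest to this profile, by Euclidean distance over the 4 libraries, were those of Rnf145 (distance 0.052), Col6a3 (0.10) and Abca8b (0.11). None of the 3 was called, with differences of 0.24, 0.23 and 0.27.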

How the data were processed

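ATAC-seq was measured in 2 WT and 2 Hox13-/- libraries of distal forelimb buds. Alignment by the authors was to mm10 with Bowtie2 2.3.1 (paired-end). Peaks were called per library with MACS2 2.1.1.20160309 and merged with HOMER 4.9.1, and the authors compared the genotypes with DESeq2. Handling of duplicate reads, blacklisted regions and the Tn5 offset is not given in the sources used here. The deposited values are rLog values (log2 scale, size factors applied) shrunk to the mean of each peak, most strongly where reads are few, so that differences of weak peaks are understated. The authors also deposited a fold change, a p-value and an adjusted p-value of their own comparison, which were not used. Without counts the depth behind each peak is unknown. Proximal libraries were not analysed here.

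All 61954 peaks were fitted with limma 3.58.1 in R 4.3.3 (1 term for genotype, variance trend, two-sided, Benjamini-Hochberg over all peaks), and no peak was filtered out. Tested on simulated data with 100 of the 61954 peaks changed by 0.75 and 100 by 1.5, the fit recovered 95 and 100, with 8 other peaks called. The simulated noise was normal with the spread of the fit, and fewer peaks were changed than were called in the data. Differences under 0.75, such as those of every called cluster peak, were not simulated, so their recovery is not known. Gene positions came from GENCODE M21 basic, and sequence from GRCm38 read with pysam 0.24.0 in Python 3.11.15, with both strands searched over the whole peak. Peaks named are those within 1 kb of a start site of Hoxd12 to Hoxd1, Mtx2 or Hnrnpa3, every called peak of the cluster, in the desert the 8 called peaks of smallest p in each direction (the lower direction had 2) and the 3 with the highest mean rLog, and 3 genes of like profile. Peaks and runs named for motifs or position, and the peak between Hoxd13 and Hoxd12, were added after values were seen. The members and lists were chosen with earlier results of these data known. Alternatives were 3 other scalings, a GC correction, no variance trend, filters on low signal, other thresholds, other bounds of cluster and desert, a replicate block and leaving out each library. A further marker list is not reported here.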

Additional observations from a re-analysis of the deposited data

How the results depend on the processing

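The peaks called higher in the cluster and the desert kept their direction in every scaling, in the GC correction and without any single library, while several lost their calls. In the cluster, 5 of the 9 were called in all scalings and the GC correction, 2 without any single library and 8 with the replicate block, which lost the Haglr peak. In the desert these numbers were 15, 11 and 21 of 21. In the other fits the cause of a moved value was not tested, except that filters test fewer peaks and leave-one-out fits use fewer libraries. Peaks called higher in the cluster numbered 3 to 5 with 1 library left out, 5 in the upper 50% of peaks by signal, 4 at an adjusted p under 0.01, 0 with a difference beyond 1 and 2 without peaks near start sites. Peaks called lower there numbered 1 with median centring, quantile or cyclic loess scaling, 1 with the GC correction with or without the replicate block, and 0 with the replicate block alone. Peaks called higher in the desert numbered 15 to 17 with 1 library left out, 13 at an adjusted p under 0.01 and 3 beyond 1. Peaks called lower there numbered 0 to 3 with 1 library left out, 1 in the upper 75%, with the GC correction (also blocked) or at an adjusted p under 0.01, 0 in the upper 50% and 0 beyond 1. Over all peaks 7040 were called higher and 5146 lower, which became 4650 to 5008 and 2865 to 3552 with 1 library left out. The lowest number higher was without WT replicate 1, and the numbers lower were 3112 without Hox13-/- replicate 1 and 2865 without Hox13-/- replicate 2. Thresholds gave 194 and 139 beyond 1, 2711 lower at an adjusted p under 0.01 and 3268 lower in the upper 50%. The cluster's median difference of 0.18 was 0.15 with median centring, 0.25 with the GC correction (also blocked), 0.27 in the upper 50%, 0.089 without peaks near start sites and 0.15 to 0.22 with 1 library left out. The desert's median of 0.24 was 0.21, 0.18 and 0.33 in the first 3 of these, 0.28 in the upper 75% and 0.20 to 0.25 with 1 library left out. The cluster minus desert difference of −0.07 was 0.013 with the GC correction (also blocked), −0.15 in the upper 50%, −0.049 with the Mtx2 and Hnrnpa3 peaks counted to the desert, −0.17 without peaks near start sites and −0.08 to −0.05 with 1 library left out. Signs that turned belonged to uncalled peaks. The upstream Hoxd12 peak was at 0.036 with the GC correction (also blocked) and at −0.076 to 0.064 with 1 library left out, the Hoxd10 peak at 0.022 with cyclic loess, 0.015 with the GC correction (also blocked) and −0.20 to 0.18 with 1 left out, and the Hnrnpa3 intron peak at 0.019 with the GC correction (also blocked). With 1 library left out the Hoxd9 intron peak ran from −0.0017 to 0.39 and the peak before Hnrnpa3 from −0.29 to 0.20. Where a genotype keeps 1 library, that library is assumed to vary like the pair of the other genotype. Replicate numbers gave no pairing, since the labels tie them to no shared litter and same-numbered libraries did not deviate together (r = −0.011 over peaks), and with the replicate block 8 cluster and 21 desert peaks were called higher, and 7013 and 4967 of all peaks higher and lower. Depth per peak is unknown, so a missing call is no sign that a peak did not change.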
